A study of Rattus norvegicus with 18 samples.

Results

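The TRIM (tripartite motif) ubiquitin ligases were followed as a gene family through adenovirus-infected rat heart muscle cells. Members were all genes whose symbol is Trim followed by a number and, at most, 1 letter, which gave 55 of the 19880 genes in the table. They were split by known function into 11 interferon-responsive members, 4 muscle members (Trim54, Trim55, Trim63 and Trim72) and 40 others. The cells were neonatal rat ventricular cardiomyocytes from Sprague-Dawley rats at postnatal day 2, preplated to remove other cell types and grown in medium with serum. All of them, controls included, were treated with 20 µM phenylephrine, an alpha-adrenergic agonist that drives cardiomyocyte growth, for 24 h. There were 6 groups of 3 RNA-seq libraries: cells infected with ad-sORF6, ad-sORF7 or ad-sORF8, which are adenoviruses that carry a short open reading frame, and cells infected with the control virus for each of these. What peptide each open reading frame encodes, what the control viruses carry and whether the libraries of a group are separate cultures are not given in the labels. Each p-value thus reflects library-to-library spread alone, and that spread could be technical.

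TRIM proteins share an N-terminal RING finger, B-boxes and a coiled coil, and most of them attach ubiquitin to target proteins chosen by a variable C-terminal domain. Some are interferon-stimulated and act against viruses, either by binding viral particles in the cytosol or by ubiquitinating sensors of viral RNA such as RIG-I. In striated muscle the MuRF proteins (Trim63, Trim55 and Trim54) sit at the sarcomere and take part in turnover of contractile proteins, while Trim72 seals breaks in the plasma membrane. Others, such as Trim28, are nuclear co-repressors.

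Promoter sequence is shown first because 3 of the 6 interferon-responsive members called in the comparisons carry a binding motif of interferon-activated transcription factors. Windows from 250 bases before to 50 bases after the gene start were matched by gene ID in a RefSeq table on the GRCr8 build, for 45 of the 55 members. The motif searched was the core of the interferon-stimulated response element (GAAA, any 2 bases, GAAA) on both strands, and it occurred in 1312 of 33469 promoters of the table (3.92%). Among the members it was found in 3 of 9 interferon-responsive promoters (Trim21, Trim26 and Trim34), in 0 of 3 muscle promoters and in 0 of 33 promoters of other members. Members without a matched promoter, which were not searched, include Trim14 and Trim69 (interferon-responsive), Trim55 (muscle) and Trim35 (other). Each of the 3 promoters holds 2 matches that overlap each other. Capitals mark the matches, all sequences read 5′ to 3′ along the gene, and Trim25 is shown as an interferon-responsive member without a match. The Trim21, Trim26 and Trim25 sequences are the 250 bases before the start (chr1:166399372-166399621, minus strand, chr20:1736312-1736561, minus strand, and chr10:74309774-74310023, plus strand). For Trim34 it is a 30-base stretch that follows the start (chr1:168119046-168119075, plus strand).
Trim21: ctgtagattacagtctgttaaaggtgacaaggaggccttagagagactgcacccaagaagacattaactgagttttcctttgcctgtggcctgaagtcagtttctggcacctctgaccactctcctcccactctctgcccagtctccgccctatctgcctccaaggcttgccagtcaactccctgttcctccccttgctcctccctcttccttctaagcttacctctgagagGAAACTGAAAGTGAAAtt
Trim26: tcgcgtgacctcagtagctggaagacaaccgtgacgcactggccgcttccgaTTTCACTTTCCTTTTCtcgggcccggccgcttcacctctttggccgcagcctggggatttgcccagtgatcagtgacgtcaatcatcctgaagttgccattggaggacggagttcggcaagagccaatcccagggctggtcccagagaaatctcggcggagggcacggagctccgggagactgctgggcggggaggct
Trim25: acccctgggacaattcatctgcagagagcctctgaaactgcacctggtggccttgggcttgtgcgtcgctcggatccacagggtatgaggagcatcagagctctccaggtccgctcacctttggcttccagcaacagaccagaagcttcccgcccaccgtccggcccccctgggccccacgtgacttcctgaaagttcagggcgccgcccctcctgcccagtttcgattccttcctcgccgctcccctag
Trim34: tctggagTTTCAGTTTCTTTTTCtcggcat
In Trim21 the matches begin 18 and 12 bases before the start, in the sense direction. In Trim26 they begin 198 and 192 bases before it and lie on the reverse strand. In Trim34 they lie on the reverse strand, 10 and 16 bases into the transcript. A match describes these letters only, and no binding was measured.

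The family was well represented in these cells. On the FPKM scale, which corrects for transcript length, 16 of the 55 members had a mean of at least 10 over the 18 libraries, 18 lay between 1 and 10 and 21 were under 1. The median of the member means was 4.98 FPKM, against 3.46 for all 19880 genes. Muscle members were high, with a class median of 60.6 FPKM, other members had a median of 4.33 FPKM and interferon-responsive members of 0.769 FPKM. Trim55 (MuRF2) was the most abundant member with a mean of 169 FPKM (range 142 to 208), ahead of the co-repressor Trim28 at 108 FPKM (101 to 118). Trim47 followed at 77.4 FPKM, then Trim54 (MuRF3) at 68.4, Trim63 (MuRF1) at 52.7, Trim35 at 40.3 and Trim72 (MG53) at 30.1. The ranges of Trim47 (68.5 to 86.1), Trim54 (57.0 to 84.6) and Trim63 (47.3 to 61.8) overlapped from each to the next. Among interferon-responsive members Trim5 at 20.5 FPKM and Trim25 at 13.0 led, and Trim21, at a mean of 9.07, spanned 3.12 to 22.4 over the libraries. That span, which was wide beside those of its neighbours in rank, was also seen in Trim34 (1.92 to 13.6) and Trim30 (0.20 to 1.92).

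**Figure D1:**
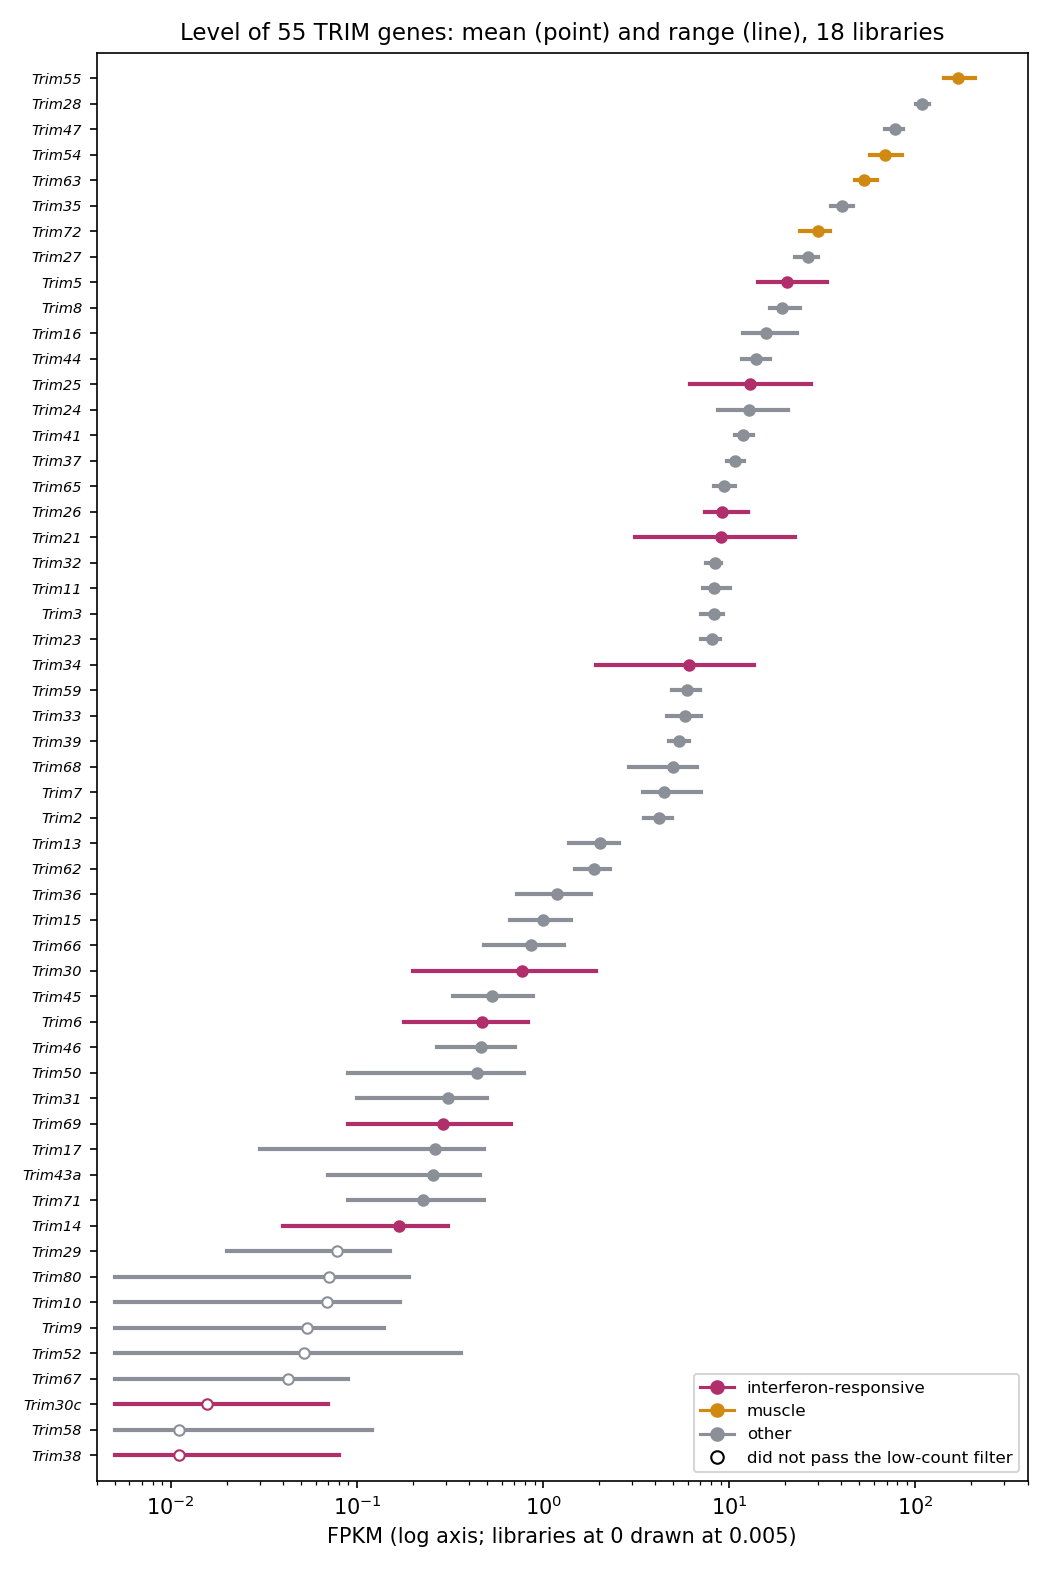
Mean level of each of the 55 TRIM genes in FPKM on a log axis (point) with the lowest and highest of the 18 libraries (line), coloured by class, with open points for the 9 members that did not pass the low-count filter. Trim55 stands at the top at 169 FPKM, and Trim21, Trim25, Trim34 and Trim30 have the long lines among the interferon-responsive members.

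Enough counts for testing were present for 46 of the 55 members: 9 of 11 interferon-responsive members, 4 of 4 muscle members and 33 of 40 others. The 9 members below the count filter were Trim29, Trim80, Trim10, Trim9, Trim52, Trim67, Trim58, Trim30c and Trim38, and none of them exceeded 10 estimated counts in any library. Trim38 had 0 counts in 14 of 18 libraries and Trim58 in 15. Positions in the table are on Rnor_6.0. Chromosome 1 holds 12 members, and 5 of them (Trim6, Trim34, Trim5, Trim30c and Trim30) lie side by side between 169410084 and 169540238. These are close paralogs, so reads can be shared among them and the values of Trim5, Trim30 and Trim34 are uncertain to that extent. The intervals of 16 members overlap another gene, and no source used here says if reads were counted by strand.

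Depth was 15697177 to 17658137 counts per library, and 0.202% to 0.224% of the counts fell on the family. All 8 cardiomyocyte markers were detected and summed to 17600 to 29300 FPKM, and the 8 cardiac fibroblast markers summed to 1500 to 1780 FPKM. Macrophage and leukocyte markers (12 of 12 present, none at 0 in every library) summed to 72.8 to 103 FPKM, and 6 endothelial markers to 9.5 to 12.5 FPKM. The 5 smooth muscle markers summed to 1570 to 2230 FPKM and the 6 skeletal muscle markers to 81.8 to 226 FPKM. Of the skeletal muscle markers, only 2 of 6 had enough counts for testing, and Myod1 and Myh4 stayed under 0.1 FPKM in each library. In such bulk samples, fewer cells of a type and less RNA per cell cannot be told apart. The libraries farthest from their group were replicate 2 of the sORF6 control and replicate 1 of the sORF7 control. Without both, the calls of the family were unchanged for sORF6 (7 members) and, for sORF7, fell from 9 to 8 with the loss of Trim35.

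Each sORF group was compared with its own control virus to ask which members the sORF virus moved. With sORF6, 7 of 46 members were called by edgeR's quasi-likelihood test (adjusted p under 0.05, Benjamini-Hochberg, over all genes), where 3.85% of all 14870 tested genes were. Of these 6 were lower and 1 higher, beside 2.88% and 0.968% of all genes. With sORF7, 9 of 46 passed, against 7.77% of all genes, 7 higher and 2 lower beside 4.12% and 3.66%. With sORF8 only Trim24 passed, 1 of 46, against 3.75% of all genes (2.03% higher and 1.72% lower). The interferon-responsive members made up most of the first 2 counts: 6 of 9 were lower with sORF6, and the same 6 (Trim21, Trim25, Trim34, Trim30, Trim5 and Trim26) were higher with sORF7. With sORF8 none of the 9 was called by edgeR, and 0 of 9 had an unadjusted p under 0.05. Their median log2 fold change over the 9 tested was -0.53 with sORF6, 0.58 with sORF7 and 0.15 with sORF8, while the median over all genes tested was 0 in each comparison. For the 4 muscle members the medians were 0.01, -0.03 and 0.02, and for the 33 other members 0, 0.04 and -0.03.

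**Figure D2:**
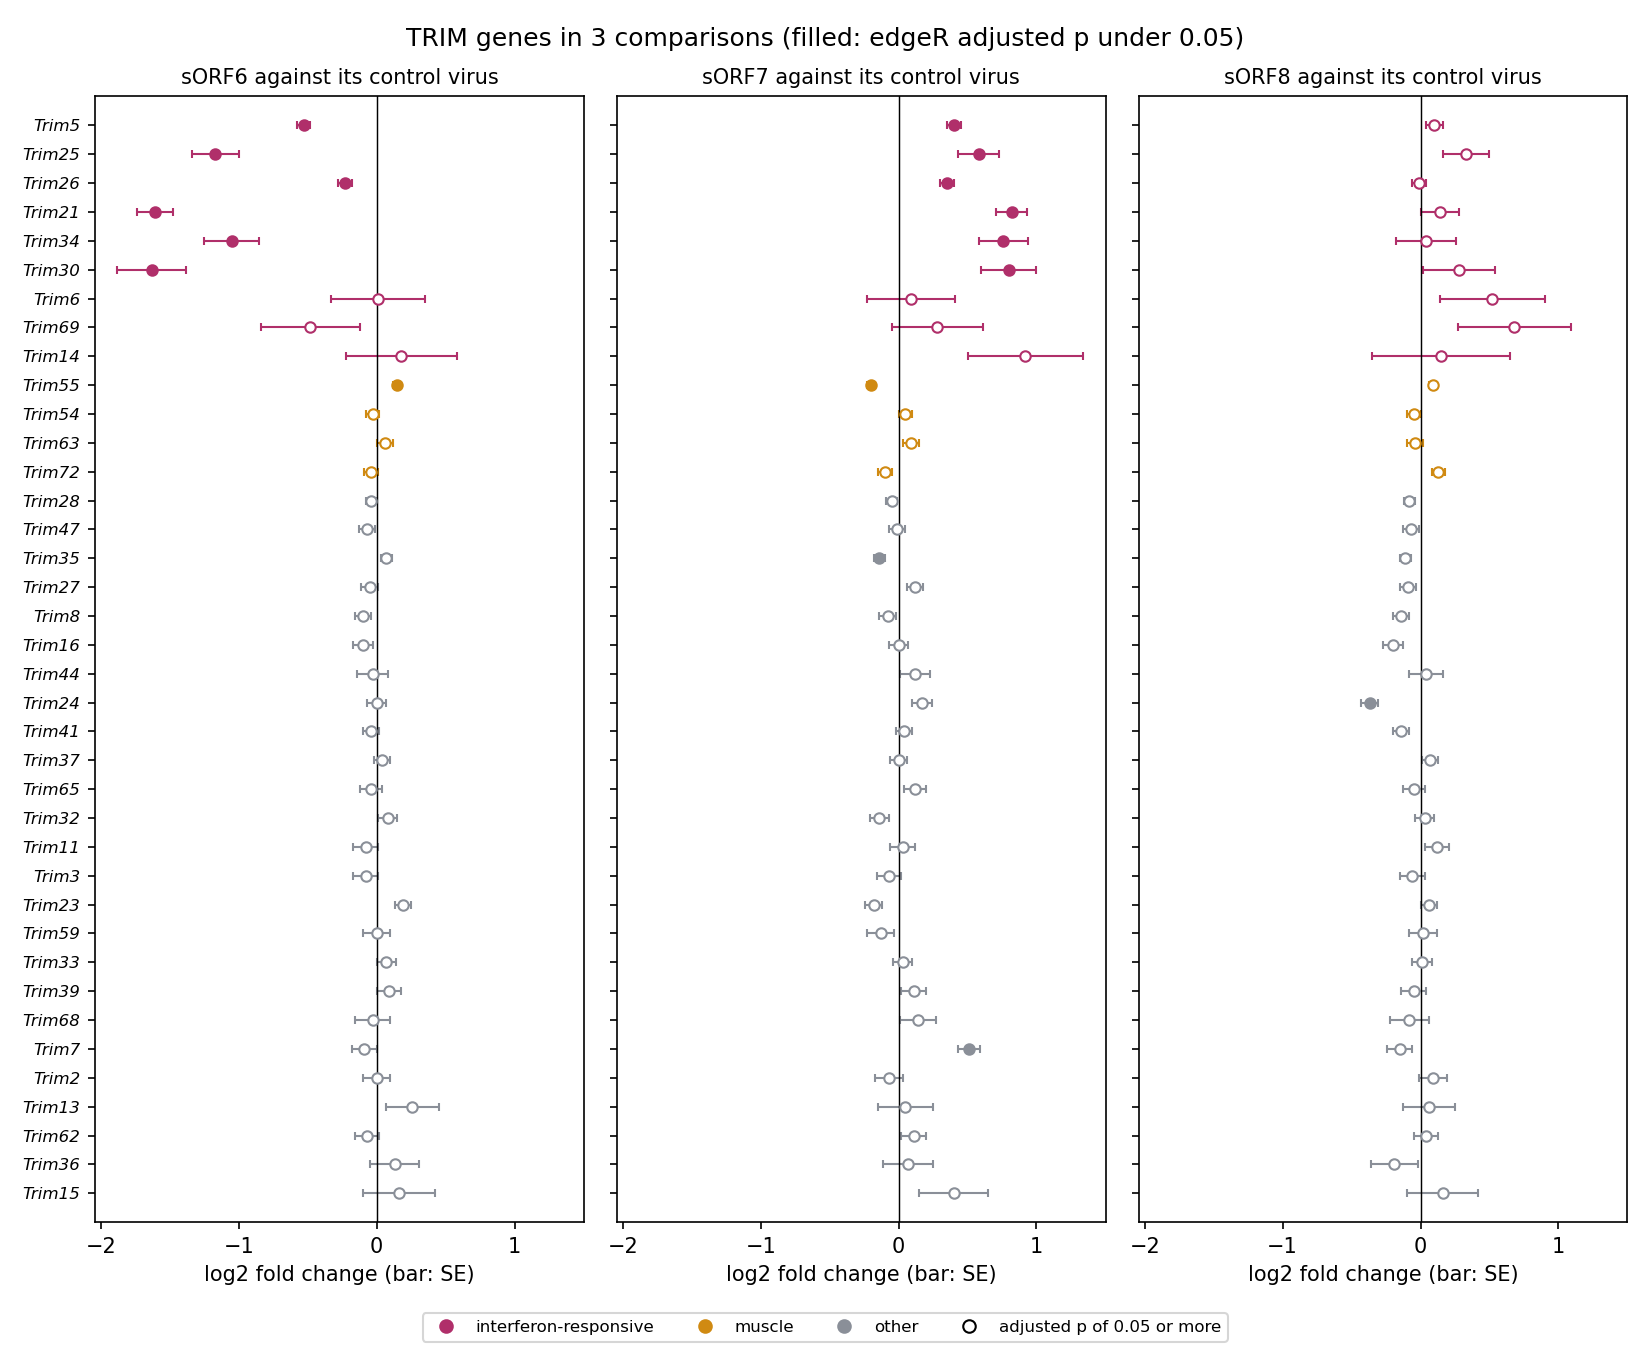
Log2 fold change (point) and its standard error (bar) of 38 TRIM genes with each sORF virus against its own control virus, filled where the edgeR adjusted p was under 0.05; the 38 are all tested interferon-responsive and muscle members and the 25 other members with a mean of at least 1 FPKM. The 6 filled interferon-responsive points lie left of 0 with sORF6 and right of 0 with sORF7, and only Trim24 is filled with sORF8.

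As a share of the family's summed FPKM, the 11 interferon-responsive members took 4.61 to 4.78% in the sORF6 libraries and 6.73 to 8.72% in their controls. In the sORF7 libraries they took 12.5 to 12.9%, against 8.21 to 9.85% in their controls, and in the sORF8 experiment 5.0 to 5.74% against 4.72 to 4.83%. Within each experiment these ranges did not overlap, with the sORF6 libraries below their controls and the sORF7 and sORF8 libraries above theirs. The levels of the controls were themselves not alike, which is taken up below.

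Trim21, the cytosolic antibody receptor that targets antibody-coated virus particles for degradation (gene 308901, chromosome 1, 167685761 to 167708735, minus strand), showed the smallest adjusted p of the family with sORF6. Normalised CPM, counts scaled to library size, were 13.3, 13.1 and 11.8 in the sORF6 libraries and 46.0, 30.1 and 40.8 in their controls. Every sORF6 library was far below every control library, and control replicate 2 was the lowest of its group. The log2 fold change was -1.61 ± 0.13 (SE), a 3.06-fold fall, with an adjusted p of 1.69e-07. With sORF7 the values were 87.4, 89.4 and 79.9 CPM against 53.3, 44.5 and 47.8 in the controls, all higher than any control. There the log2 fold change was 0.82 ± 0.11 (adjusted p = 0.000123). With sORF8 the values of 18.8, 18.7 and 14.5 CPM overlapped those of the controls (15.7, 17.1 and 14.4), and the log2 fold change of 0.14, with a 95% interval from -0.17 to 0.44, did not pass. In group means Trim21 thus ran from 85.6 CPM with sORF7 through 48.5 and 39.0 in the sORF7 and sORF6 controls to 17.3 and 15.7 in the sORF8 experiment and 12.7 with sORF6.

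Trim25, the ligase that ubiquitinates the RNA sensor RIG-I (gene 494338, chromosome 10, 76343826 to 76366146, plus strand), moved in the same directions. It stood at 16.1, 15.3 and 16.6 CPM with sORF6 and at 45.8, 23.7 and 38.3 CPM in the controls. The sORF6 libraries were nearly equal, while the controls were spread, again with replicate 2 lowest, and the groups did not overlap. The log2 fold change was -1.17 ± 0.17 (adjusted p = 0.00016). Leaving out that control replicate gave -1.4, and leaving out control replicate 1 gave -0.96, both called. With sORF7 Trim25 was at 59.6, 67.4 and 54.3 CPM against 45.5, 40.3 and 35.4, without overlap, a log2 fold change of 0.58 ± 0.15 (adjusted p = 0.0206). The sORF7 call was lost without sORF7 replicate 1 (adjusted p = 0.0573) or 2 (0.0986) and without control replicate 2 (0.0624) or 3 (0.0893). With sORF8 the libraries at 23.4, 22.8 and 19.6 CPM lay above the controls at 16.9, 17.5 and 18.1, but the log2 fold change of 0.33 ± 0.17 did not pass (adjusted p = 0.367). It passed, at an adjusted p of 0.0362, when only the 6 libraries of that experiment were fitted.

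**Figure D3:**
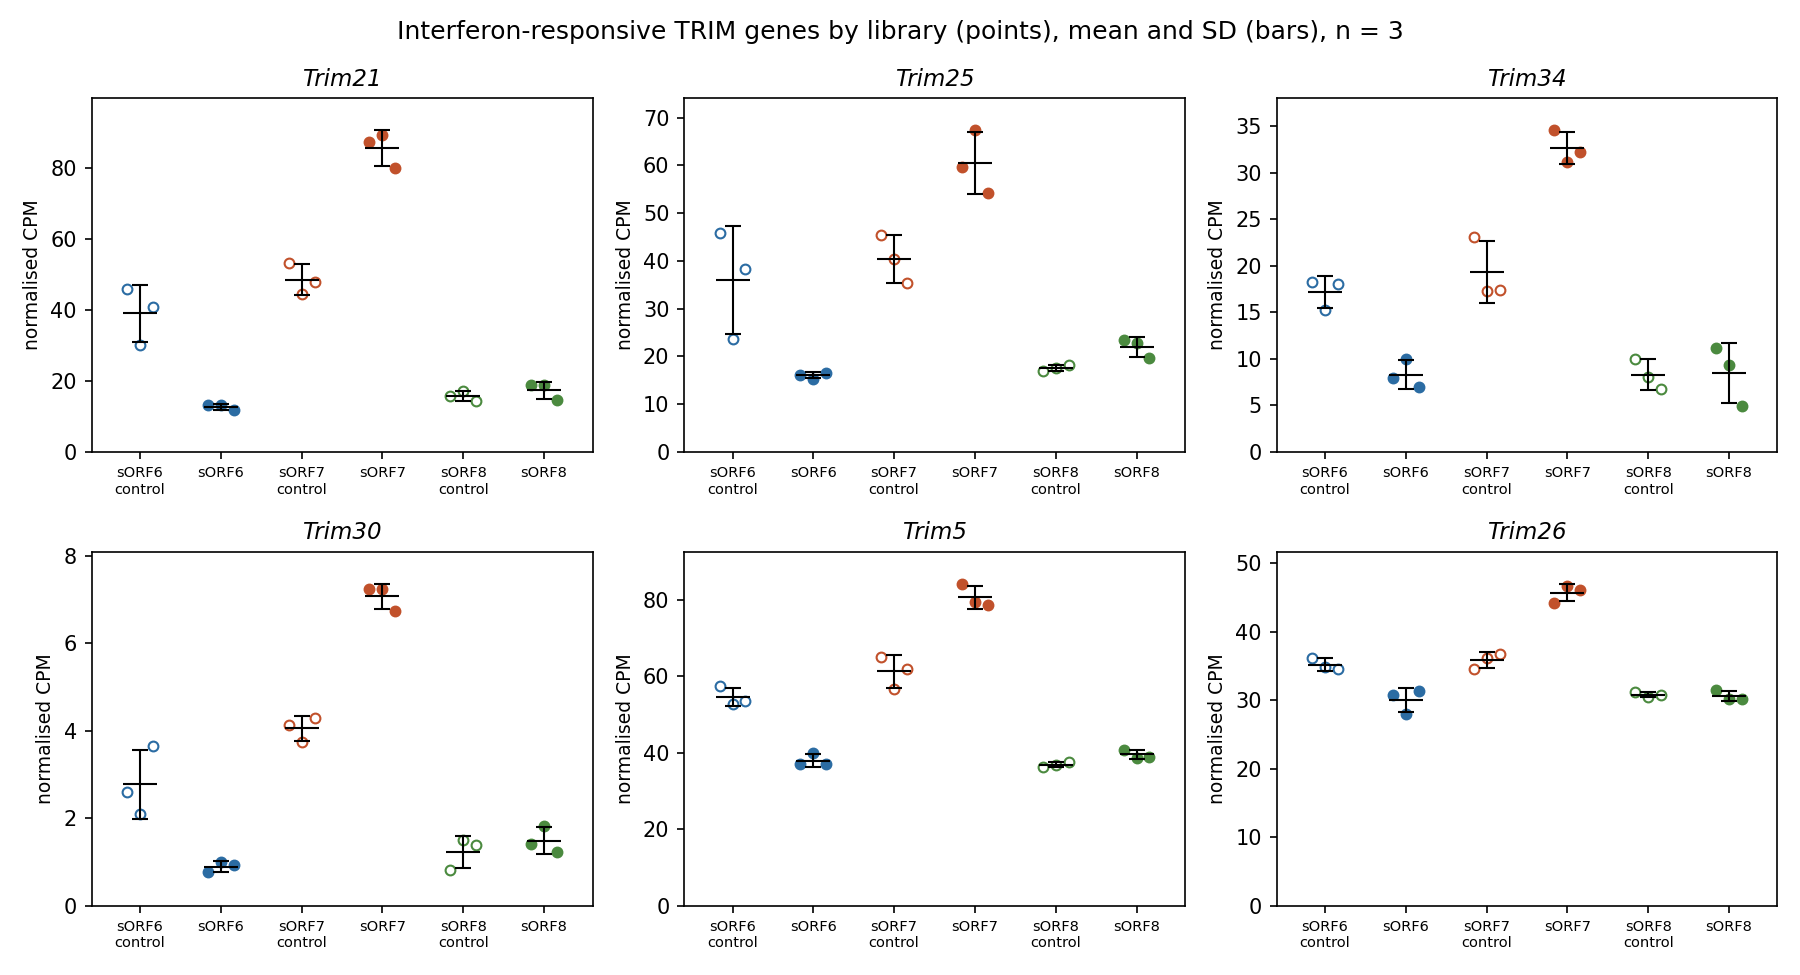
Normalised CPM of the 6 interferon-responsive TRIM genes that were called, by group, with 1 point per library, open for control virus and filled for sORF virus, and bars for mean and SD (n = 3). In each panel the sORF6 libraries lie below their controls, the sORF7 libraries lie above theirs and the sORF8 experiment is low in both groups.

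On chromosome 1 the 3 neighbours Trim34, Trim5 and Trim30 were called in the same directions. Trim34 (169433539 to 169446580, plus strand) was at 7.97, 9.99 and 6.93 CPM with sORF6 against 18.3, 15.2 and 18.1, and at 34.6, 31.2 and 32.3 CPM with sORF7 against 23.1, 17.3 and 17.4. Its log2 fold changes were -1.05 ± 0.20 (adjusted p = 0.00362) and 0.76 ± 0.18 (adjusted p = 0.0126), with no overlap in either experiment. With sORF8 it was the most scattered of the called members, at 11.2, 9.37 and 4.91 CPM against 10.0, 8.07 and 6.77 (log2 fold change 0.04, adjusted p = 0.963). Trim5, known in primates as a factor that binds retroviral capsids (169446774 to 169463760, minus strand), was more abundant and tighter between libraries. It stood at 36.9, 39.8 and 36.9 CPM with sORF6 against 57.3, 52.8 and 53.4, which gave a log2 fold change of -0.53 ± 0.05 (adjusted p = 3.48e-06). With sORF7 it stood at 84.1, 79.3 and 78.5 CPM against 65.0, 56.7 and 61.9, a log2 fold change of 0.40 ± 0.05 (adjusted p = 8.92e-05). Both contrasts were free of overlap, and so was that of sORF8 (40.7, 38.7 and 38.9 against 36.2, 36.7 and 37.4 CPM), where the log2 fold change of 0.10 did not pass (adjusted p = 0.395).

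Trim30 (gene 499223, 169521655 to 169540238, minus strand), a rodent relative of Trim5, was scarce, with 13 to 129 estimated counts per library. It fell from 2.59, 2.09 and 3.65 CPM in the controls to 0.756, 0.993 and 0.923 CPM with sORF6, a log2 fold change of -1.63 ± 0.25 (adjusted p = 0.000328). With sORF7 it rose from 4.12, 3.73 and 4.30 to 7.23, 7.24 and 6.74 CPM, a log2 fold change of 0.80 ± 0.20 (adjusted p = 0.0174). Neither pair of groups overlapped, whereas with sORF8 the values of 1.4, 1.83 and 1.23 CPM overlapped those of the controls at 0.809, 1.49 and 1.38. On the log2(FPKM + 1) scale, which understates changes of low genes, the sORF6 difference of Trim30 was -0.47 and the sORF7 difference 0.48, both still called (limma adjusted p = 0.00198 and 0.00149). On that scale its sORF6 response differed from that of sORF7 by -0.95 and from that of sORF8 by -0.54, in place of -2.43 and -1.91, and both stayed called. The sORF7 call of Trim30 was lost without sORF7 replicate 1 (adjusted p = 0.0615) or 2 (0.0545) or control replicate 2 (0.0693), and that of Trim34 without sORF7 replicate 1 (0.0562) or control replicate 2 (0.0618) or 3 (0.053).

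Trim26, a ligase implicated in control of interferon-beta production (gene 309586, chromosome 20, 2199185 to 2224481, minus strand), changed least of the 6. It was at 30.7, 28.0 and 31.4 CPM with sORF6 against 36.2, 34.9 and 34.5, and at 44.2, 46.6 and 46.1 CPM with sORF7 against 34.5, 36.1 and 36.7. The groups were apart in both experiments, with log2 fold changes of -0.23 ± 0.05 (adjusted p = 0.0122) and 0.35 ± 0.05 (adjusted p = 0.000157). With sORF8 the values were 31.5, 30.1 and 30.1 CPM against 31.2, 30.5 and 30.8, a log2 fold change of -0.01 (95% interval -0.12 to 0.10). The fall of Trim26 with sORF6 lost its call in 6 of 16 alternatives. These were the fit of the 6 sORF6 libraries alone (adjusted p = 0.135), leaving out sORF6 replicate 2 (0.0853) or control replicate 1 (0.0624), limma on log2(FPKM + 1) (0.0596) and log2(FPKM + 0.1) (0.0545), and DESeq2 (0.0505). Trim15 on the other strand overlaps Trim26 over 4452 bases and had a mean of 1.00 FPKM, against 9.09 for Trim26. Its log2 fold changes were 0.16 with sORF6 and 0.40 with sORF7, neither called (adjusted p = 0.835 and 0.419).

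The other interferon-responsive members tested were rare transcripts at 0.168 to 0.472 FPKM, and none passed. Trim6, which makes free ubiquitin chains in the interferon pathway, had 0.931, 1.05 and 1.67 CPM with sORF6 against 1.5, 1.51 and 0.627, and 1.18, 2.04 and 1.42 CPM with sORF7 against 1.51, 1.34 and 1.49. Trim69 had 0.524, 0.526 and 0.635 CPM against 0.748, 0.579 and 1.03 with sORF6 and 0.729, 0.906 and 1.53 against 1.04, 0.758 and 0.802 with sORF7. All 4 of these contrasts overlapped between groups. Trim14, a TRIM protein without a RING finger that works with the mitochondrial adaptor MAVS, had 0.953, 0.679 and 0.793 CPM with sORF7 against 0.406, 0.466 and 0.401. These did not overlap, but at such counts the log2 fold change of 0.92 had a 95% interval from 0.01 to 1.83 and an adjusted p of 0.223. With sORF6 Trim14 was at 0.698, 0.642 and 0.808 CPM against 0.345, 0.753 and 0.797. In the sORF8 experiment Trim6, Trim69 and Trim14 had log2 fold changes of 0.52, 0.68 and 0.15, with adjusted p of 0.547, 0.441 and 0.925. Differences of the size seen in Trim26 or Trim5 were not detectable at this depth in any of the 3.

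Markers of leukocytes, which also use many interferon-responsive genes, were looked at beside these changes. Their sum was 84.1 to 92.3 FPKM with sORF6 against 85.5 to 101, and 72.8 to 81.7 FPKM with sORF7 against 75.9 to 87.9, so the ranges overlapped in both experiments. Of the 10 leukocyte markers tested, 2 were lower with sORF6 (Itgam, log2 fold change -0.83, and Adgre1, -0.61) and 2 were lower with sORF7 (Csf1r, -0.49, and Lyz2, -0.36). Among all genes tested, 2.88% were called lower with sORF6 and 3.66% with sORF7. At an unadjusted p under 0.05 there were 7 of 10 with sORF6, 4 lower and 3 higher, and 3 of 10 with sORF7, 1 higher and 2 lower. The share of all genes at that unadjusted threshold was not counted. The median log2 fold change of the 10 was -0.16 with sORF6 and -0.05 with sORF7. The called leukocyte markers were thus all lower in both experiments, while those at an unadjusted p under 0.05 went both ways. The part of leukocytes in the changes of the TRIM genes was not tested.

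The 3 responses come from separate libraries with separate controls, so they were also compared with each other as differences of log2 fold changes. Between sORF6 and sORF7, 10 of 46 members differed (11.2% of all genes did), 3 of them higher with sORF6 and 7 lower, beside 4.88% and 6.27% of all genes. Between sORF6 and sORF8 it was 5 of 46 (3.69% of all genes), 1 higher and 4 lower, beside 0.868% and 2.82%. Between sORF7 and sORF8 it was 6 of 46 (7.72% of all genes), 5 higher and 1 lower, beside 3.8% and 3.92%. Trim21 differed in each pair: the sORF6 response was lower than that of sORF7 by a log2 difference of -2.43 ± 0.17 and lower than that of sORF8 by -1.75 ± 0.19, and the sORF7 response was higher than that of sORF8 by 0.68 ± 0.18. Trim5 also differed in each pair. All 6 called interferon-responsive members differed between sORF6 and sORF7, and 4 of them (Trim21, Trim25, Trim30 and Trim5) between sORF6 and sORF8. For Trim34 the difference between sORF6 and sORF8, -1.09 ± 0.30, did not pass (adjusted p = 0.0513), but it was called in 9 of 22 alternatives, among them the replicate block (0.017), no low-count filter (0.036) and leaving out sORF8 replicate 3 (0.00155).

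Among muscle members, Trim55 changed and the rest did not pass. Trim55, or MuRF2, binds titin and the microtubules of assembling sarcomeres (gene 365751, chromosome 2, 104416972 to 104459117, plus strand). It was at 499, 502 and 479 CPM with sORF6 against 436, 460 and 439 in the controls. All sORF6 libraries lay above all controls, and the rise was small, a log2 fold change of 0.15 ± 0.03 (1.11-fold, adjusted p = 0.00723). With sORF7 it was at 363, 375 and 370 CPM against 428, 421 and 423, a fall of 1.15-fold (log2 fold change -0.20 ± 0.03, adjusted p = 0.000399). With sORF8 the libraries at 354, 364 and 345 CPM were again above their controls at 333, 338 and 331, but the log2 fold change of 0.09 ± 0.03 did not pass (adjusted p = 0.16). The responses of sORF6 and sORF7 differed by 0.35 ± 0.04 and those of sORF7 and sORF8 by -0.29 ± 0.04, both called. In a fit of the 6 sORF6 libraries alone, the sORF6 rise was not called (adjusted p = 0.109).

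Cardiomyocyte marker sums were compared beside Trim55. They were 24300 to 24800 FPKM with sORF7 against 25900 to 28300 in its controls, without overlap, and 20500 to 20600 FPKM with sORF8 against 17600 to 17800. With sORF6 they were 27600 to 28200 FPKM against 25600 to 29300, which overlapped. Of the 8 markers tested, 3 were lower and 0 higher with sORF7, beside 3.66% and 4.12% of all genes. With sORF8, 5 were higher and 0 lower, beside 2.03% and 1.72%. With sORF6, 1 each way was called, beside 0.968% of all genes higher and 2.88% lower. An unadjusted p under 0.05 was seen for 7 of 8 with sORF7, 1 higher and 6 lower. It was seen for all 8 with sORF8, each higher, and for 2 with sORF6, 1 each way. How many of all genes reach that unadjusted threshold was not counted, so these counts have no background beside them. The part of cardiomyocyte share or of sarcomere gene expression in the Trim55 values was not tested.

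Trim63, or MuRF1, the atrophy-linked ligase of muscle (gene 140939, chromosome 5, 152533362 to 152547138, plus strand), was at 99.7, 99.2 and 98.4 CPM with sORF6 against 90.9, 103 and 92.0. It was at 113, 105 and 103 CPM with sORF7 against 90.0, 106 and 105, and at 88.0, 92.1 and 86.3 CPM with sORF8 against 85.5, 94.4 and 94.3. Sets of libraries overlapped in all 3 experiments. The log2 fold changes were 0.06 (95% interval -0.08 to 0.19), 0.09 (-0.04 to 0.23) and -0.04 (-0.18 to 0.10), so smaller changes than these bounds could have gone undetected.

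Trim54, or MuRF3, which stabilises microtubules and partners the other MuRF proteins, had 85.5, 81.2 and 82.8 CPM with sORF6 against 86.7, 88.2 and 80.4. With sORF7 it had 93.8, 89.6 and 93.2 CPM against 80.6, 96.1 and 90.5, and with sORF8 114, 109 and 108 CPM against 115, 117 and 111. Again the groups of each experiment overlapped, with 95% intervals of the log2 fold change of -0.15 to 0.08, -0.07 to 0.17 and -0.16 to 0.07. Its interval (chromosome 6, 26557861 to 26623950, minus strand) overlaps Gtf3c2, Mpv17 and Ucn on the other strand, so reads of these genes could enter its count.

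Trim72, or MG53, was at 69.5, 77.4 and 82.0 CPM with sORF6 against 80.2, 79.5 and 76.6, which overlapped. It was at 68.9, 71.3 and 71.7 CPM with sORF7 against 75.2, 77.2 and 74.9 and at 63.0, 62.1 and 65.6 CPM with sORF8 against 58.9, 59.9 and 54.9. In these last 2 experiments the groups were apart, below the controls with sORF7 and above them with sORF8, yet neither log2 fold change passed (-0.10, adjusted p = 0.303, and 0.13, adjusted p = 0.204). The difference between these responses, -0.24 ± 0.08, did not pass either (adjusted p = 0.0645), and it was called when only the libraries of those 2 experiments were fitted (adjusted p = 0.0388). Trim72 (chromosome 1, 199429997 to 199488936, plus strand) shares 1034 bases with Pycard on the opposite strand, which had a mean of 1.73 FPKM.

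**Figure D4:**
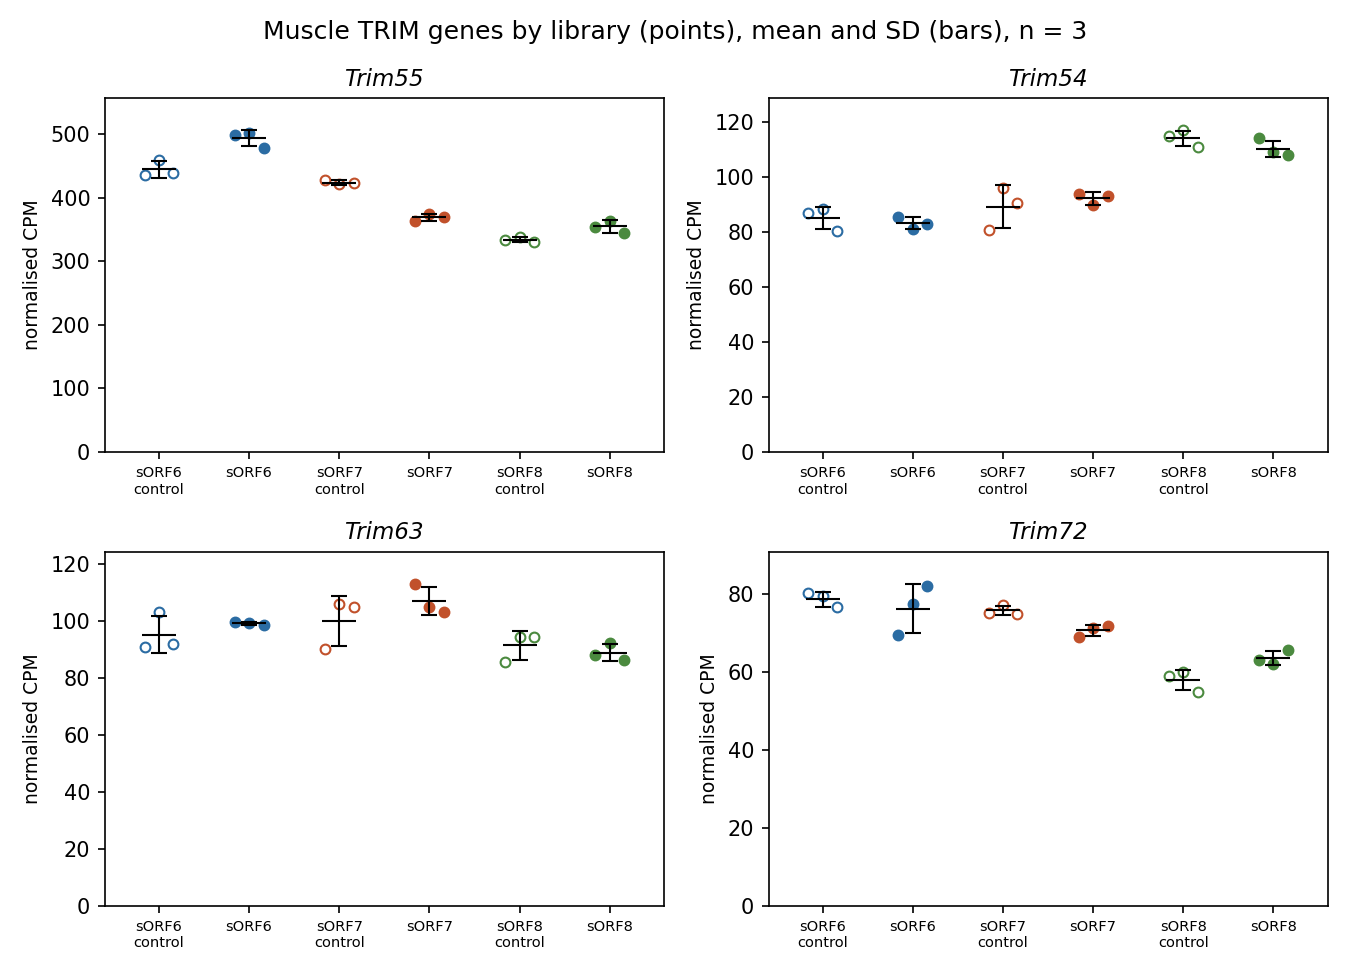
Normalised CPM of the 4 muscle TRIM genes by group, with 1 point per library, open for control virus and filled for sORF virus, and bars for mean and SD (n = 3). Trim55 is above its controls with sORF6 and below them with sORF7, and the sORF8 experiment stands apart for Trim54 (high) and Trim72 (low) in both of its groups.

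Other members were mostly level. Among the 25 of them with a mean of at least 1 FPKM, the log2 fold change lay within 0.25 of 0 for 24 with sORF6, 23 with sORF7 and 24 with sORF8. Trim28, which silences transposons with KRAB zinc finger proteins, was a case of this, at 308, 319 and 315 CPM with sORF6 against 319, 327 and 324, at 328, 313 and 306 CPM with sORF7 against 310, 332 and 341, and at 328, 309 and 326 CPM with sORF8 against 348, 331 and 336. With sORF6 and sORF8 all libraries lay below their controls, by little. The log2 fold changes of Trim28 were -0.04 (95% interval -0.12 to 0.04), -0.05 (-0.14 to 0.03) and -0.08 (-0.16 to 0.01). Trim47, the other abundant member of the class, was at 160, 162 and 165 CPM with sORF6 against 172, 178 and 161, at 175, 181 and 164 CPM with sORF7 against 151, 186 and 185, and at 169, 164 and 169 CPM with sORF8 against 171, 169 and 187. Its groups overlapped in each experiment, with log2 fold changes of -0.07, -0.01 and -0.07. The 8 tested members of the class under 1 FPKM had wider log2 fold changes, up to 1.13 for Trim50 with sORF8, at 0.487, 1.22 and 0.368 CPM against 0.187, 0.372 and 0.376, and none of them passed.

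Trim7, a ligase known to bind glycogenin, the primer of glycogen synthesis (gene 303089, chromosome 10, 34185535 to 34201855, plus strand), was the 1 other member that rose. It was at 21.8, 21.7 and 23.3 CPM with sORF7 against 15.1, 14.5 and 17.1. All sORF7 libraries exceeded all controls, and the log2 fold change was 0.51 ± 0.08 (1.43-fold, adjusted p = 0.000675). With sORF6 it was at 12.4, 12.9 and 14.3 CPM against 13.8, 12.6 and 15.7 and with sORF8 at 12.1, 12.2 and 11.4 CPM against 12.7, 14.0 and 12.7. The first pair of groups overlapped and the second did not, and neither difference was called (adjusted p = 0.703 and 0.454), and the sORF7 response of Trim7 was higher than that of sORF6 and that of sORF8, by log2 differences of 0.60 (coded as sORF6 minus sORF7, -0.60 ± 0.12) and 0.66 ± 0.12. It kept its call with sORF7 in all 16 alternatives run.

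Trim24, a chromatin reader and co-regulator of nuclear receptors (gene 500084, chromosome 4, 65535069 to 65684746, plus strand), was the member called with sORF8. It was at 38.4, 38.0 and 42.0 CPM with sORF8 against 47.9, 53.6 and 51.0 in the controls. The groups were well apart, and the log2 fold change was -0.37 ± 0.06 (1.29-fold lower, adjusted p = 0.002), kept in all 15 alternatives run. With sORF6 Trim24 was at 26.5, 24.9 and 25.3 CPM against 26.7, 23.3 and 26.8, and with sORF7 at 33.4, 31.2 and 31.9 CPM against 28.2, 27.3 and 30.2. Neither of these passed (adjusted p = 0.99 and 0.133). Both differences from the sORF8 response did, at 0.36 ± 0.09 for sORF6 and 0.54 ± 0.09 for sORF7, the first of them losing its call in 8 of 22 alternatives.

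Trim35 and Trim23 changed by small amounts. Trim35 was at 133, 141 and 130 CPM with sORF7 against 147, 151 and 146, at 152, 162 and 150 CPM with sORF6 against 147, 147 and 148, and at 148, 156 and 147 CPM with sORF8 against 157, 159 and 169. The sORF7 libraries were all below their controls, as were those of sORF8 (not called, adjusted p = 0.167), but the log2 fold change of -0.14 ± 0.04 (adjusted p = 0.046) stayed called in only 2 of 16 alternatives, among those lost being DESeq2 size factors (adjusted p = 0.0592) and the fit without a low-count filter (0.0643). Trim23, with an ARF-type GTPase domain, was called in no single comparison. Its libraries were at 30.3, 29.1 and 28.6 CPM with sORF6 against 25.9, 24.4 and 26.7, and at 25.4, 23.5 and 23.4 CPM with sORF7 against 26.9, 26.6 and 28.5. These lay above the controls in the first case and below them in the second, and the difference between the 2 responses, 0.37 ± 0.09, passed (adjusted p = 0.0087).

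**Figure D5:**
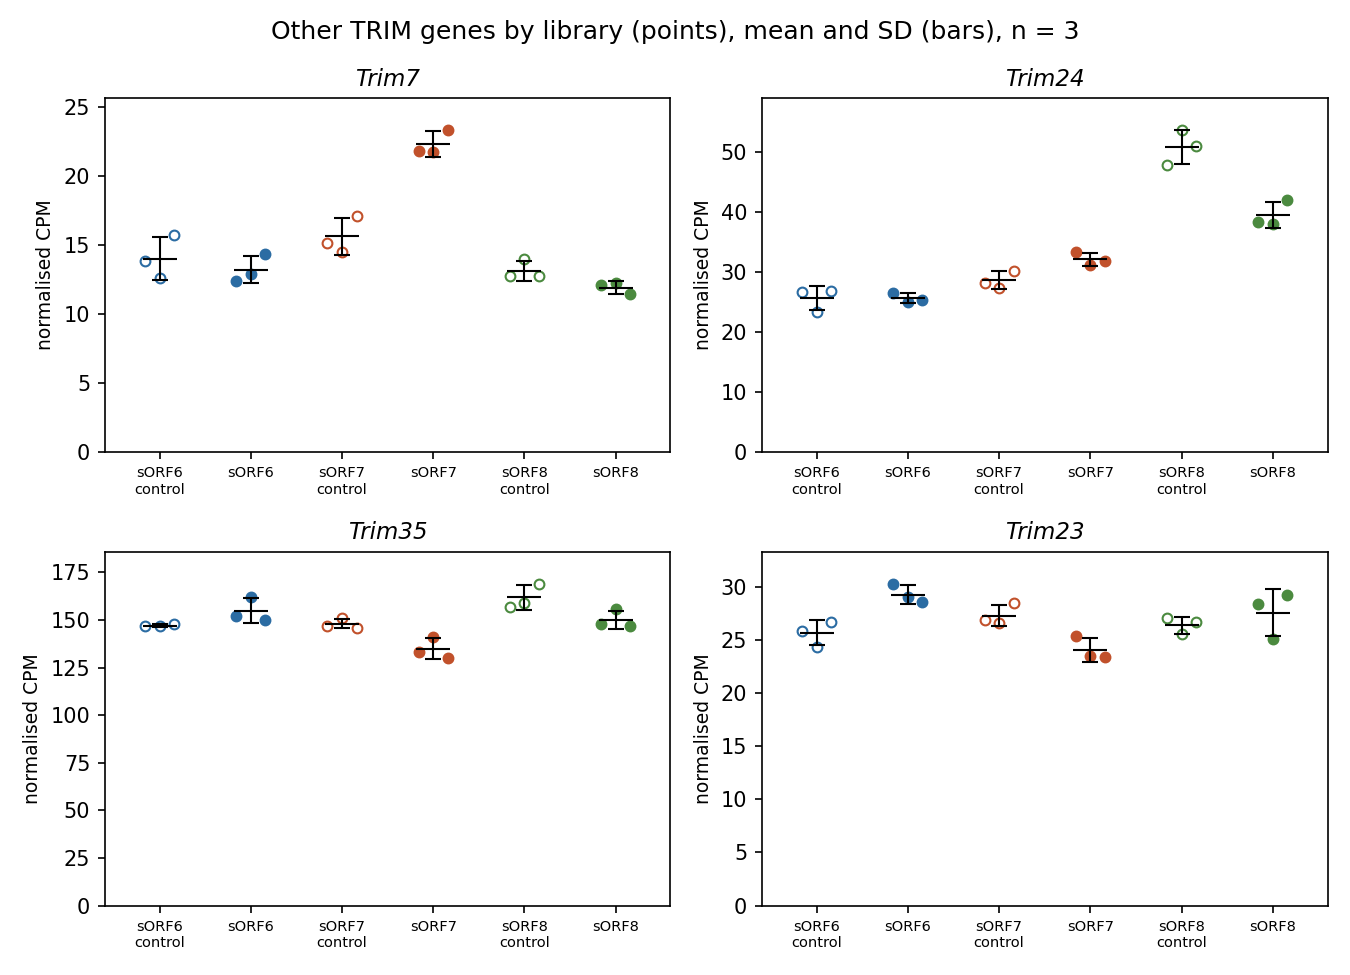
Normalised CPM of 4 other TRIM genes by group, with 1 point per library, open for control virus and filled for sORF virus, and bars for mean and SD (n = 3). Trim7 is high in the sORF7 libraries alone, and Trim24 is high in both groups of the sORF8 experiment and lower with sORF8 than in its controls.

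Without any statistics, a gap between groups was frequent: the sORF and control libraries did not overlap for 14 of 46 members with sORF6, 13 with sORF7 and 13 with sORF8, where this held for 20.6%, 23.1% and 24.5% of all genes. By class, 6, 7 and 3 of the 9 interferon-responsive members, 1, 2 and 2 of the 4 muscle members and 7, 4 and 8 of the 33 other members had no overlap.

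The 3 control groups each received the control virus for their sORF virus, with contents that the labels do not give. Comparing them shows how far members differ between the experiments outside the sORF groups. By a joint F test, 22 of 46 members differed among the control groups, where 38.4% of all genes did. Among these were 8 of 9 interferon-responsive members, 3 of 4 muscle members and 11 of 33 others. Only the sORF8 control was checked for standing apart from the other control groups. It overlapped them for 1 called interferon-responsive member and 4 called other members. All its libraries were below those of the other controls for 7 called interferon-responsive members, by 2.78-fold for Trim21 and Trim30, 2.20-fold for Trim34, 2.18-fold for Trim25, 1.57-fold for Trim5 and 1.15-fold for Trim26, relative to the mean of the other control groups. Trim69, the seventh, was 2.34-fold lower at very low counts. These levels in the sORF8 control, such as 36.8 CPM of Trim5 and 30.8 CPM of Trim26, stand beside 37.9 and 30 CPM with sORF6, a pair of groups that was not tested. The control virus and the experiment cannot be told apart in this comparison.

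Muscle members differed too, but not in 1 direction. Trim54 was 1.31-fold higher in the sORF8 control than the mean of the other controls, while Trim55 was 1.30-fold and Trim72 1.33-fold lower (adjusted p = 5.29e-06, 1.09e-08 and 3.33e-06). Trim63 did not pass (adjusted p = 0.236). The summed cardiomyocyte markers of that control, 17600 to 17800 FPKM, were below those of the other controls, 25600 to 29300 FPKM. Its skeletal muscle markers, of which only 2 of 6 had enough counts for testing, summed to 81.8 to 84.9 FPKM, against 173 to 226 FPKM in the others. The part of either marker set in the muscle member levels was not tested. Among other members, Trim24 was 1.88-fold and Trim16 1.60-fold higher in the sORF8 control, and Trim68 1.5-fold lower.

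Genes that work with the TRIM ligases were read off the same fit. As a measure for the counts below, 3.85% of all genes tested were called with sORF6, 7.77% with sORF7 and 3.75% with sORF8. TRIM proteins under other symbols (6, of which 5 were tested) gave 1 call in each of the first 2 comparisons, that of Pml, the organiser of nuclear bodies, which is itself interferon-stimulated. Pml fell from 114 ± 16.5 to 58.0 ± 2.04 CPM with sORF6 (SD, n = 3 each, log2 fold change -0.97) and rose from 139 ± 3.0 to 198 ± 7.63 CPM with sORF7 (0.51). Mid1, Mid2, Rnf207 and Bspry were not called with any sORF. Of 16 tested genes of RIG-I and interferon signalling, 9 were lower with sORF6, 9 were higher with sORF7 and 0 were called with sORF8 by edgeR. With sORF8, 4 of them had an unadjusted p under 0.05, all higher, a threshold at which the share of all genes was not counted. Ddx58, which encodes RIG-I, the substrate of Trim25, had log2 fold changes of -2.33 with sORF6 (adjusted p = 1.12e-07) and 0.90 with sORF7 (adjusted p = 0.000916). Mavs, Tbk1 and Irf3, which carry the signal onwards, were not called with any sORF.

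Of 18 ubiquitin-conjugating (E2) enzymes, which hand ubiquitin to TRIM ligases, 1 was called in each of the first 2 comparisons and 0 with sORF8. Among all genes 3.85%, 7.77% and 3.75% were called, so 1 call among 18 is near the first 2 shares. With sORF8, 5 of the enzymes had an unadjusted p under 0.05, 1 higher and 4 lower, a threshold at which the share of all genes was not counted. The called enzyme was Ube2l6, which also conjugates the ubiquitin-like protein ISG15, at 17.0 ± 0.581 CPM with sORF6 against 33.6 ± 3.42 (log2 fold change -0.98) and 61.3 ± 3.54 CPM with sORF7 against 36.8 ± 3.09 (0.74). For 17 tested partners of muscle protein turnover, 1 was higher and 0 lower with sORF6, beside 0.968% and 2.88% of all genes. With sORF7, 3 were higher and 1 lower, beside 4.12% and 3.66%. With sORF8 again 3 were higher and 1 lower, beside 2.03% and 1.72%. Mybpc3, a sarcomere protein, was called in each comparison, with log2 fold changes of 0.13, -0.24 and 0.15. Fbxo32, or atrogin-1, the other atrophy-linked ligase beside Trim63, rose with sORF7 (0.47, adjusted p = 0.0185), and Sqstm1, an autophagy receptor, rose with sORF7 (0.48) and fell with sORF8 (-0.29).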

How the data were processed

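RNA of 18 libraries was analysed. Per the submitters' processing notes, tools include HISAT2 2.0.4, RSEM 1.2.12 and DESeq2 1.4.5 on Rnor_6.0, without stated roles. The authors deposited estimated counts and FPKM per gene and library. The authors' deposited log2 fold changes and q-values were not used, so every p-value is from the fits below.

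Estimated counts were rounded, filtered with filterByExpr over the 6 groups (14870 genes kept), scaled by TMM and fitted with edgeR 4.0.16 (R 4.3.3) in 1 quasi-likelihood model of 6 group means on all 18 libraries (12 residual degrees of freedom, common biological coefficient of variation 6.9%). P-values are two-sided, adjusted by Benjamini-Hochberg over all 14870 genes and called under 0.05. Normalised CPM use TMM-adjusted library sizes. Intervals are 95%. Alternatives used DESeq2 1.42.0, limma 3.58.1 on log2(FPKM + 1) and log2(FPKM + 0.1), other filters, scaling, a length correction, a replicate block and left-out libraries. Fits were also run on simulated data in which all groups shared the same means except for genes changed on purpose in a sORF group. That setting leaves out the differences among the control groups and any shared origin of the libraries, and no result here rests on it. Per-library values are given for muscle members, tested interferon-responsive members, other members called in a sORF comparison or among the 5 most abundant, and those named as largest in a range. Trim15, Trim23, Trim50 and the named genes of the pathway lists that were not called were chosen after their values were seen, as was leaving out 2 libraries together. Members and gene lists were chosen with earlier results of these data known. Promoters are RefSeq's, build GRCr8. Depth was 15697177 to 17658137 counts per library.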

Additional observations from a re-analysis of the deposited data

Results flagged for a closer look

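The responses of 11 members differed between experiments by the edgeR test of the difference itself, in 21 member and experiment pairs, given here as log2 differences ± SE. For sORF6 minus sORF7 they were Trim21 -2.43 ± 0.17, Trim30 -2.43 ± 0.32, Trim34 -1.82 ± 0.27, Trim25 -1.75 ± 0.22, Trim5 -0.92 ± 0.08, Trim7 -0.60 ± 0.12 and Trim26 -0.58 ± 0.07, and in the other direction Trim23 0.37 ± 0.09, Trim55 0.35 ± 0.04 and Trim35 0.21 ± 0.06. For sORF6 minus sORF8 they were Trim30 -1.91 ± 0.36, Trim21 -1.75 ± 0.19, Trim25 -1.50 ± 0.24, Trim5 -0.63 ± 0.08 and Trim24 0.36 ± 0.09. For sORF7 minus sORF8 they were Trim21 0.68 ± 0.18, Trim7 0.66 ± 0.12, Trim24 0.54 ± 0.09, Trim26 0.36 ± 0.07, Trim5 0.30 ± 0.08 and Trim55 -0.29 ± 0.04. The adjusted p ran from 1.71e-08 (Trim21, sORF6 minus sORF7) to 0.0317 (Trim24, sORF6 minus sORF8). The control levels of 9 of these members also differed among the 3 control groups, with the sORF8 control outside the range of the others. For Trim7 and Trim23 no such difference was called (adjusted p = 0.0855 and 0.504), and the sORF8 control overlapped the others.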

How the results depend on the processing

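Over 19 named members and 6 comparisons, 28 of 38 called results kept their call in every alternative run, and of 2131 member values under alternatives 2059 stayed on their side of the threshold, 56 lost a call, 16 gained one and 0 reversed. Of 131 counts of called members under alternatives, 3 moved by more than 1.5 times. The count for sORF7, 9 members, ranged from 5 to 8 with a library left out, and was 5 without sORF7 replicate 1 or without its control replicate 2, where Trim25, Trim30, Trim34 and Trim35 lost their calls. With only the 6 libraries of the sORF8 experiment fitted, its count was 2 in place of 1, with Trim25 added. Trim5 and Trim21, sORF7 minus sORF8, each lost their call in 5 of 22 alternatives, and Trim35, sORF6 minus sORF7, in 7 of 22. The causes were not tested. With the replicate number as a block, called members were 7 for sORF6, 8 for sORF7 and 1 for sORF8, and 10, 6 and 7 for the differences. Libraries of equal number correlated at -0.0225 to 0.178 and those of unequal number at -0.148 to 0.0913. Most but not all sORF libraries correlated best with the control of their own number. The numbers were not treated as pairing the libraries in the main fit, though a pairing remains possible. The block could not be fitted to the control groups. With 3 libraries a group, members with few counts could show only large changes.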
